A study of Mus musculus with 53 samples.

Results

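The transcripts described here are those of the angiotensin system's core: Agt (angiotensinogen, Entrez 11606), Agtr2 (type 2 angiotensin receptor, Entrez 11609), Agtr1a (type 1a angiotensin receptor) and Ace (angiotensin-converting enzyme, Entrez 11421). All probe sets of the deposited table whose annotated symbol or alias is one of these 4 genes were taken, which gave 6 of 12488 probe sets, for 3 of the 4 genes. Agtr1a has no probe set among them and was not analysed here. Agt was read by 101887_at, Agtr2 by 94934_at and 161212_r_at, and Ace by 160927_at, 161224_f_at and 101428_at. Of these 6, 4 passed the filter on low values and were tested among 7619 probe sets.

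Angiotensinogen is a secreted protein that renin cuts to angiotensin I, and the converting enzyme on cell surfaces trims angiotensin I to angiotensin II. Angiotensin II acts through the type 1 receptor, which raises blood pressure and drives growth and matrix production, and through the type 2 receptor, which is abundant in the fetus and often opposes the type 1 receptor. Liver is the main source of circulating angiotensinogen. Adipose tissue is a further source, and cultured preadipocytes are known to make more of the transcript as they turn into adipocytes. Glucocorticoids are known to raise Agt transcription in liver.

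The cells were NIH-3T3, a fibroblast line made from mouse embryos, and carried an expression vector with EBF1 (Ebf1 is a transcription factor that B cells need), with PPARg2 (a form of the nuclear receptor Pparg that is typical of fat cells), or with no insert. Cells of every kind, vector cells included, received the differentiation hormones, and RNA was isolated at d0, d2, d4 and d10, with d0 as the baseline. The groups, named as in the labels, were EBF1, PPARg and vector on each day: at d0 4 arrays for each insert, as many at d2, and 7 at d4, while d10 had 2 for EBF1, 3 for PPARg and 3 for vector, which makes 53 MG_U74Av2 arrays. The labels speak of 7 independent stimulation experiments but do not tie arrays to them, so p-values measure the spread between these arrays. The sources used here do not state which hormones were used.

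Array mean intensities ran from 309.1 to 370.4 and array medians from 142.5 to 167.6. The arrays were grouped here into 3 sessions by the month of the date in the array experiment files. November and December dates were joined as session 2. Arrays of 1 session may therefore differ in date. Sessions 1 and 2 each held every insert at d0, d2 and d4, and session 3 held replicates 5 to 7 of d4 and all arrays of d10, so d10 and d0 shared no session. Fibroblast markers were high throughout: 11 of 11 had a group mean above the pooled median of 158 in 11 of 12 groups, and 10 of 11 in EBF1 d2. The summed level of 16 adipocyte markers ran from 41540 to 52360 in EBF1 d10, from 37120 to 41390 in PPARg d10 and from 7319 to 10880 in vector d10. Hepatocyte markers stayed low, with 1 of 6 above the pooled median in each group and sums from 617.3 to 1045 over the 53 arrays.

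The upstream sequence of Agt is shown because its transcript moved most of the members, and that of Agtr2 because the receptor moved with a different timing. Both are the 250 bases before the RefSeq start site in GRCm38.p6, printed 5′ to 3′ on the gene's own strand, chr8:124569707-124569956 on the minus strand for Agt and chrX:21484374-21484623 on the plus strand for Agtr2. Capitals mark a TATA box match (TATAAA on either strand).
Agt: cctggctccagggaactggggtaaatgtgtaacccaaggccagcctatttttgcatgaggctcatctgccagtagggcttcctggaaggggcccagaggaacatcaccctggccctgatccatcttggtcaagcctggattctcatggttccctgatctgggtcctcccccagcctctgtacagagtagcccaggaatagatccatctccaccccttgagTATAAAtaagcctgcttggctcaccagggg
Agtr2: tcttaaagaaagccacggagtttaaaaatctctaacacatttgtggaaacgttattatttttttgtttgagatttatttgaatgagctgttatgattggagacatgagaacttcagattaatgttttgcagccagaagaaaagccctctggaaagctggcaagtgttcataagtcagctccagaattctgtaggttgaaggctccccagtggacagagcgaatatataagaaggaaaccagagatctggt

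The Agt window held 1 TATAAA, 30 to 25 bases before the start, and the Agtr2 window held 0. Only these letters were searched for, so the tatataa near the end of the Agtr2 window was not counted. TATAAA was found in 12.4% of 32851 RefSeq promoter windows of the same length. Neither window held, on either strand, the letters searched for C/EBP (TTGCNNAA, in 9.56% of windows), EBF (CCCNNGGG, 11.8%), a nuclear receptor (AGGTCA, 14%, or its direct repeat AGGTCANAGGTCA, 0.0335%) or the glucocorticoid receptor (TGTTCT, 16.1%). No match says only that these letters are not in these windows.

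Agt rose for a time after the hormones in cells of all 3 inserts, to a level that differed between them. It was low at d0, rose by d2, was highest at d4 and was low again at d10. PPARg cells had more Agt than vector cells at d2 and d10, and EBF1 cells had less than vector cells at d2 and d4. The 2 comparisons with vector share the vector arrays.

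At d0 the intensities of Agt were 227, 255, 309 and 314 in EBF1 cells, 247, 255, 243 and 299 in PPARg cells, and 225, 197, 285 and 311 in vector cells. These arrays overlapped, and no pair of inserts passed the test, with log2 folds of 0.13 ± 0.16 for EBF1 minus vector (SE, limma adjusted p = 0.912) and 0.05 ± 0.16 for PPARg minus vector (adjusted p = 0.916), where 0.814% and 3.6% of the tested probe sets passed in either direction. The 95% intervals were -0.19 to 0.45 and -0.27 to 0.37.

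**Figure D1:**
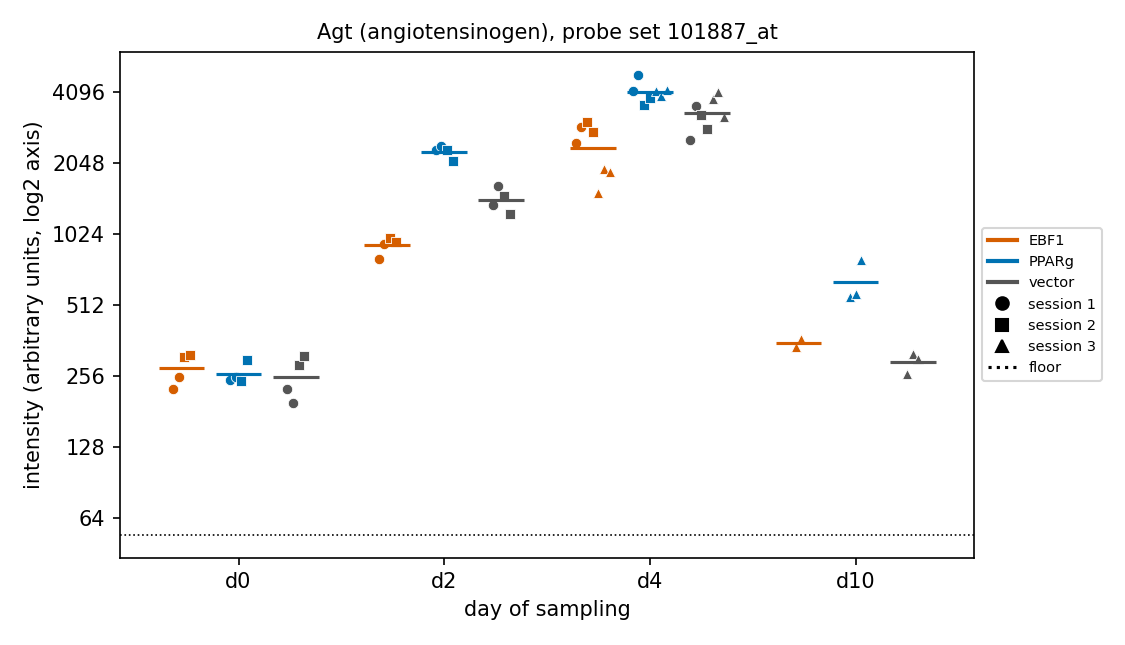
Agt intensity (probe set 101887_at, log2 axis, arbitrary units) on each of the 53 arrays by day, with EBF1, PPARg and vector from left to right within a day; marker shape gives the session, the bar the group mean and the dotted line the floor of 54.5. The PPARg mean was 2298 at d2 and 4119 at d4, above the vector means of 1433 and 3356, and at d10 the means were 353 in EBF1, 642 in PPARg and 295 in vector cells.

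At d2 the groups stood apart. The 4 arrays read 806, 932, 987 and 950 in EBF1 cells, 2340, 2419, 2341 and 2090 in PPARg cells, and 1363, 1639, 1486 and 1245 in vector cells. No array of one insert overlapped with another insert, and the order was PPARg, vector, EBF1. Arrays that did not overlap in the same direction were seen for 2% of probe sets in PPARg minus vector, 2.51% in EBF1 minus vector and 7.44% in EBF1 minus PPARg.

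PPARg minus vector at d2 was 0.69 ± 0.16 on the log2 scale (1.61-fold, adjusted p = 0.0212), where 0.131% of the tested probe sets were called higher. EBF1 minus vector was -0.64 ± 0.16 (adjusted p = 0.0189), where 0.669% were called lower, and EBF1 minus PPARg was -1.33 ± 0.16 (2.51-fold lower in EBF1 cells, adjusted p = 3.12e-08), where 1.42% were called lower. The first of these differences was 0.67 in session 1 and 0.70 in session 2, and the second -0.79 and -0.49. Both calls against vector were close to the threshold: leaving out 1 of 8 arrays at a time gave adjusted p from 0.0294 to 0.0939 for PPARg and from 0.0226 to 0.109 for EBF1. The PPARg call was lost without vector replicate 1 or 4 or PPARg replicate 1, 2 or 3, and the EBF1 call without vector replicate 2 or 3 or EBF1 replicate 1 or 2. Lpl, lipoprotein lipase, an early adipocyte gene, was also higher in PPARg cells at d2 (0.85 ± 0.13, adjusted p = 5.61e-05), while Adipoq, the adipocyte hormone adiponectin, did not pass in either insert (0.37 ± 0.23 for PPARg, 0.53 ± 0.23 for EBF1).

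At d4 Agt reached its highest level in every insert. EBF1 cells ran from 1528 to 3076 with a median of 2499, PPARg cells from 3614 to 4878 with a median of 4140, and vector cells from 2575 to 4115 with a median of 3285 (7 arrays each). EBF1 and PPARg arrays did not overlap (1.96% of probe sets lay apart in this direction), and both overlapped with vector arrays.

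EBF1 minus PPARg at d4 was -0.83 ± 0.12 (adjusted p = 3.73e-06), where 3.98% of probe sets were called lower. EBF1 minus vector was -0.52 ± 0.12 (1.44-fold lower, adjusted p = 0.000895), where 7.91% were called lower. PPARg minus vector was 0.31 ± 0.12 (95% interval 0.07 to 0.55) and did not pass (adjusted p = 0.125), where 5.7% were called higher.

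The deficit of EBF1 cells against vector cells at d4 rested on session 3. Its EBF1 arrays read 1528, 1939 and 1883, against 3831, 4115 and 3234 in vector cells. In session 1 they read 2499 and 2916, against 2575 and 3586 in vector cells, and in session 2 3076 and 2791, against 3285 and 2864. The log2 difference was -0.17 in session 1 (adjusted p = 0.634), -0.07 in session 2 (adjusted p = 1) and -1.06 in session 3 (adjusted p = 0.000161). The change of the EBF1 effect between session 3 and the other sessions was -0.94 ± 0.19 (adjusted p = 0.0161), where 0.184% of probe sets were called lower. EBF1 minus PPARg at d4 had 1 sign in all 3 sessions, with -0.74, -0.35 and -1.21 in sessions 1, 2 and 3. What differed between the sessions was not tested.

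By d10 Agt had fallen in each insert, but PPARg cells kept an excess. The arrays read 339 and 367 in EBF1 cells, 553, 574 and 799 in PPARg cells, and 261, 319 and 304 in vector cells. No array of one insert overlapped with another, as was so in the same direction for 12.8% of probe sets in PPARg minus vector and 6.51% in EBF1 minus PPARg.

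PPARg minus vector at d10 was 1.11 ± 0.18 (2.16-fold, adjusted p = 5.09e-06), where 9.4% of probe sets were called higher. EBF1 minus PPARg was -0.84 ± 0.20 (adjusted p = 0.0209), where 0.328% were called lower. EBF1 minus vector was 0.26 ± 0.20 and did not pass (adjusted p = 0.495, 95% interval -0.15 to 0.68), although its arrays lay above those of vector, as did those of 16.1% of probe sets. EBF1 minus PPARg rests on 2 EBF1 arrays, and leaving out 1 array at a time gave adjusted p from 0.0267 to 0.502, with the call lost without either EBF1 array or PPARg replicate 3. Beside this, 14 of 16 adipocyte markers had a d10 group mean above the pooled median in EBF1 and in PPARg cells, and 11 of 16 in vector cells. Adipoq minus vector at d10 was 3.41 ± 0.30 in EBF1 cells and 3.15 ± 0.27 in PPARg cells (adjusted p = 6.38e-13 and 2.74e-13). Not every marker was raised. Retn had d10 means of 362 in EBF1, 387 in PPARg and 330 in vector cells, and Cebpa and Cd36 were under the pooled median in every group. Since the RNA is of whole cultures, fewer cells that make a transcript and less RNA per cell cannot be told apart.

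The effect of PPARg on Agt was larger at d10 than at d0 and at d4. On the log2 scale it was 0.05 at d0, then 0.69 at d2, 0.31 at d4 and finally 1.11 at d10, and changes that involve d2 were not tested. The PPARg effect (PPARg minus vector) at d10 exceeded that at d0 by 1.05 ± 0.24 (adjusted p = 0.00167), where 5.15% of probe sets were called higher, and that at d4 by 0.80 ± 0.22 (adjusted p = 0.0109), where 4.12% were. The d4 effect minus the d0 effect was 0.25 ± 0.20 and did not pass (adjusted p = 0.741). The EBF1 effect turned: at d4 it was lower than at d0 by -0.65 ± 0.20 (adjusted p = 0.0329), where 2.69% were called lower, and at d10 it was higher than at d4 by 0.79 ± 0.24 (adjusted p = 0.036), where 4.27% were called higher. The PPARg change from d4 to d10 was lost without vector d10 replicate 1 (0.72) or PPARg d10 replicate 3 (0.63). The EBF1 change from d0 to d4 was lost without any 1 of 8 arrays (vector d0 replicates 1 and 2, EBF1 d0 replicates 3 and 4, and replicates 5 and 6 of vector d4 and of EBF1 d4), with adjusted p up to 0.135. That from d4 to d10 was lost without any 1 of 10 arrays (vector d4 replicates 2, 5 and 6, EBF1 d4 replicates 5, 6 and 7, vector d10 replicates 1 and 3 and both EBF1 d10 arrays), with adjusted p up to 0.174. The EBF1 effect at d4 minus d0 did not pass within session 1 (-0.36, adjusted p = 0.321) or session 2 (-0.13, adjusted p = 1).

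**Figure D2:**
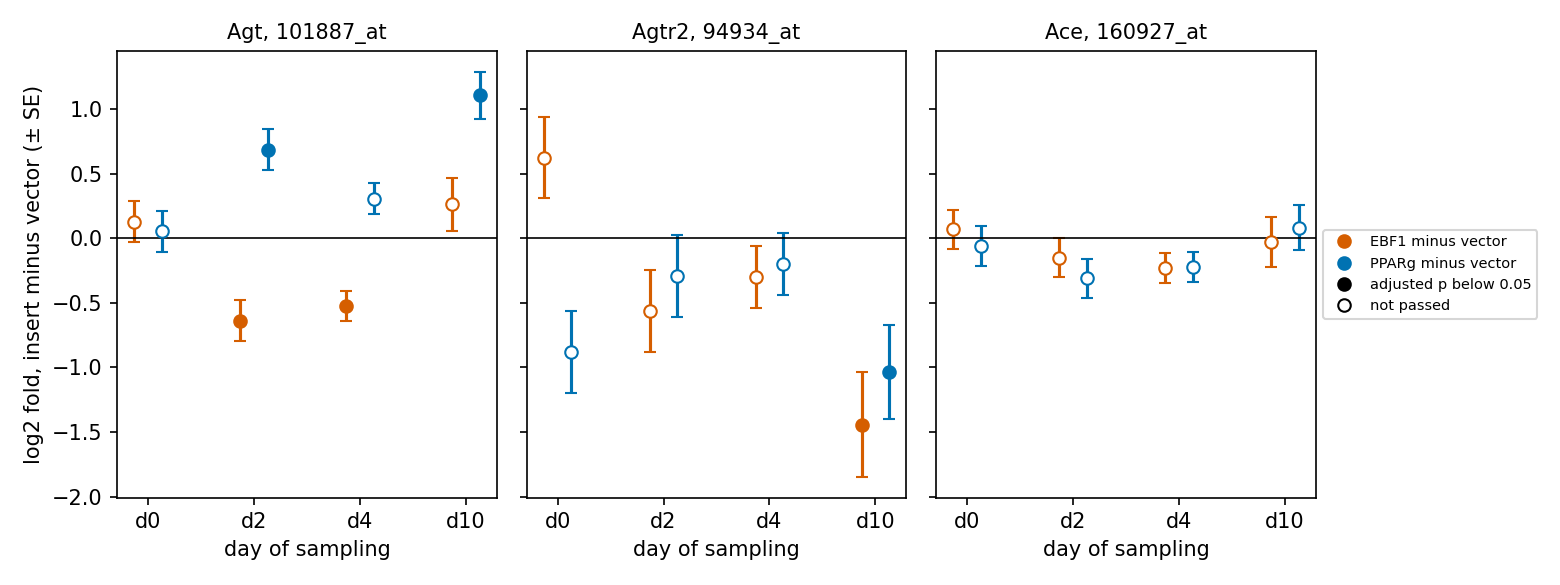
Log2 fold of each insert minus vector at d0, d2, d4 and d10 for Agt, Agtr2 and Ace, with the standard error as bars and filled points where the adjusted p was below 0.05. For Agt the PPARg points lie above 0 and reach 1.11 at d10, for Agtr2 both inserts lie below 0 at d10 (-1.03 and -1.44), and no Ace point is filled.

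Over time within an insert, Agt changed by large factors. At d4 minus d0 its log2 fold was 3.08 ± 0.14 in EBF1 cells (8.43-fold, adjusted p = 3.54e-23), 3.98 ± 0.14 in PPARg cells (15.8-fold, adjusted p = 1.2e-27) and 3.73 ± 0.14 in vector cells (adjusted p = 1.29e-26), where 16.7%, 14.3% and 11.3% of probe sets were called higher. Agt at d2 minus d0 was 1.74 ± 0.16 in EBF1 cells, 3.14 ± 0.16 in PPARg cells and 2.51 ± 0.16 in vector cells, where 10%, 7.59% and 8.91% were called higher. d4 minus d2 was 1.33 ± 0.14 in EBF1 cells, 0.84 ± 0.14 in PPARg cells and 1.22 ± 0.14 in vector cells, where 14%, 19.2% and 7.42% were called higher. All 9 of these changes passed.

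By d10 it fell in each insert, and over all arrays more in vector cells than in either insert. The changes of the insert effects from d4 to d10 above passed. That of EBF1 was lost without any 1 of 10 arrays and that of PPARg without any 1 of 2. Agt at d10 minus d4 was -2.71 ± 0.18 in EBF1 cells, -2.70 ± 0.16 in PPARg cells and -3.50 ± 0.16 in vector cells, where 5.71%, 10.6% and 6.83% of probe sets were called lower. With the d4 arrays of session 3 alone, the session of d10, these were -2.33, -2.70 and -3.66. At d10 Agt was above d0 in PPARg cells (1.28 ± 0.17, adjusted p = 3.42e-08, where 13.4% were called higher), and neither EBF1 cells (0.37 ± 0.19, adjusted p = 0.165) nor vector cells (0.23 ± 0.17, adjusted p = 0.42) passed.

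In the order of the 12 group means, PPARg d4 (4119 ± 393), vector d4 (3356 ± 536), EBF1 d4 (2376 ± 595) and PPARg d2 (2298 ± 143) came first (SD), and the arrays of neighbours in this run overlapped. Then came vector d2 (1433 ± 169), EBF1 d2 (919 ± 78.6), PPARg d10 (642 ± 137) and EBF1 d10 (353 ± 19.7), each apart from its neighbours on every array. Vector d10 (295 ± 30.1) overlapped with the 3 groups of d0, whose means were 276 in EBF1, 261 in PPARg and 255 in vector cells.

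Agt is a known glucocorticoid target and an acute phase gene in liver, and genes of those kinds did not all follow 1 course. Fkbp5 is an inducible co-chaperone of the glucocorticoid receptor. Its group means at d0, d2, d4 and d10 were 396, 1789, 1626 and 328 in EBF1 cells. They were 466, 1891, 2611 and 328 in PPARg cells, and 446, 1869, 2429 and 346 in vector cells. At d4 Fkbp5 was lower in EBF1 than in vector cells (-0.59 ± 0.08, limma adjusted p = 1.28e-07). Saa3, an acute phase protein, had group means of 2946 at d4 and 9501 at d2 in EBF1 cells, 2031 and 4831 in PPARg cells, and 3473 and 8635 in vector cells, and it fell from d2 to d4 in each insert (-1.79 ± 0.27, -1.41 ± 0.27 and -1.38 ± 0.27 in EBF1, PPARg and vector cells). Tsc22d3, another glucocorticoid target, had group means from 180 to 234 and passed in none of the comparisons of insert and vector at d2, d4 and d10. Nr3c1, the glucocorticoid receptor, did not pass the filter on low values.

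The 5 genes whose 12 group means on the log2 scale were most like those of Agt, out of 5765 others, were Adam15 (a membrane disintegrin, Pearson r 0.979, Spearman 0.972), Ppp5c (a protein phosphatase, 0.957 and 0.944), Retn (the adipocyte hormone resistin, 0.935 and 0.811), Adh1 (an alcohol dehydrogenase, 0.935 and 0.895) and Psme3 (a proteasome activator, 0.931 and 0.874). All 5 had their highest group mean in PPARg d4. The 12 points share their arrays and cultures, and the values are a description.

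Agtr2 followed another course. It was raised at d2, low at d4 and raised again at d10 in vector cells, and at d10 it was lower in both inserts than in vector cells. It also differed between the inserts before the hormones acted. All values are of probe set 94934_at. The other probe set, 161212_r_at, stood between 2.49 and 17.2 on all 53 arrays, under the floor of 54.5, and was not tested. Intensities are therefore those of 1 probe set.

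At d0 Agtr2 read 310, 247, 335 and 271 in EBF1 cells, 110, 108, 88.1 and 103 in PPARg cells, and 172, 173, 213 and 195 in vector cells. The 3 groups did not overlap, with EBF1 highest and PPARg lowest (EBF1 arrays lay above PPARg arrays for 4.17% of probe sets). EBF1 minus PPARg was 1.50 ± 0.32 (2.84-fold, adjusted p = 0.00101), where 2.35% of probe sets were called higher.

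PPARg minus vector at d0 was -0.88 ± 0.32 (adjusted p = 0.138) and EBF1 minus vector was 0.62 ± 0.32 (adjusted p = 0.907). Neither passed over all arrays, although the arrays of the groups did not overlap, as was so for 2.53% of probe sets in the first direction and 1.9% in the second. In a fit that adds the session as a term both passed with the same differences (adjusted p = 0.000377 and 0.0474), and within sessions PPARg minus vector was -0.66 and -1.10 and EBF1 minus vector 0.69 and 0.56. The spread behind the all-array values contains the session difference at d4 described next.

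**Figure D3:**
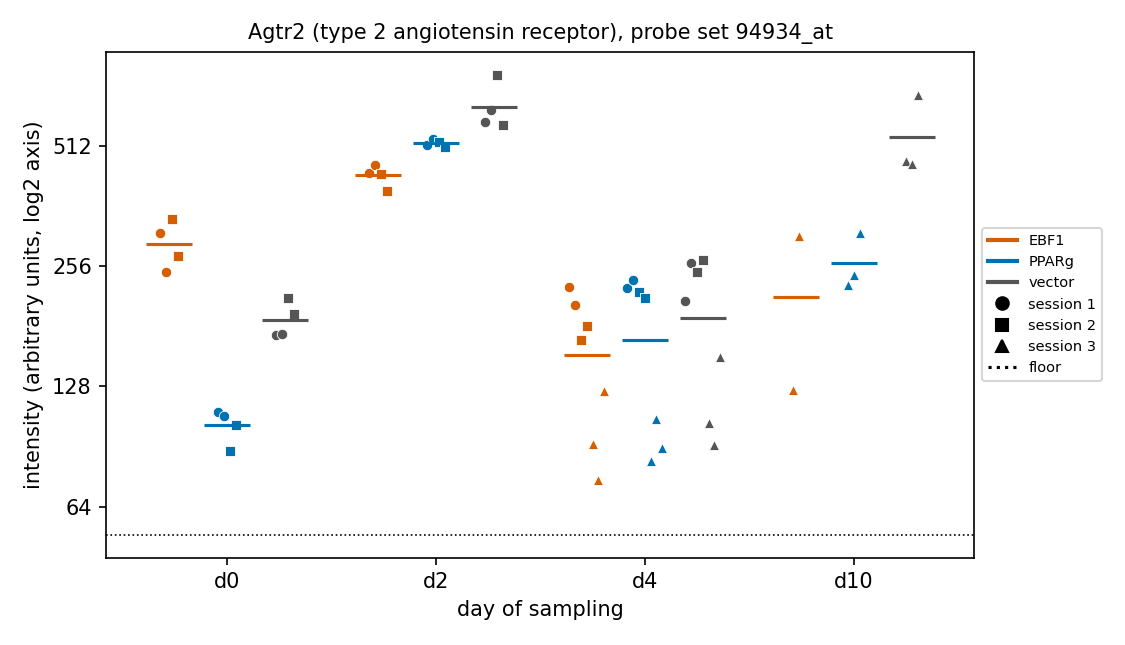
Agtr2 intensity (probe set 94934_at, log2 axis, arbitrary units) on each of the 53 arrays by day, with EBF1, PPARg and vector from left to right within a day; marker shape gives the session, the bar the group mean and the dotted line the floor of 54.5. At d4 the arrays of session 3 (74.6 to 152) lie below those of sessions 1 and 2 (167 to 265) in every insert.

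At d4 the sessions differed more than the inserts. In session 3 Agtr2 ran from 74.6 to 125 in EBF1 cells, from 83.3 to 106 in PPARg cells and from 91.5 to 152 in vector cells, against 167 to 227, 212 to 236 and 209 to 265 in sessions 1 and 2. Session 3 minus sessions 1 and 2 was -1.14 ± 0.11 over the mean of the 3 inserts (2.20-fold lower, adjusted p = 2.27e-11), where 13.3% of probe sets were called lower. No insert comparison passed at d4: EBF1 minus vector was -0.30 ± 0.24 (95% interval -0.78 to 0.18), PPARg minus vector -0.20 ± 0.24 (-0.68 to 0.28) and EBF1 minus PPARg -0.10 ± 0.24 (-0.58 to 0.38). The session values of EBF1 minus vector were -0.12, -0.56 and -0.25, and those of PPARg minus vector -0.02, -0.24 and -0.29.

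At d2 Agtr2 read 439, 459, 435 and 395 in EBF1 cells, 516, 532, 525 and 508 in PPARg cells, and 587, 630, 772 and 577 in vector cells. The order of the inserts was vector, PPARg, EBF1, with no overlap between any of them. EBF1 minus vector was -0.56 ± 0.32 (adjusted p = 0.839), PPARg minus vector -0.29 ± 0.32 (adjusted p = 0.861) and EBF1 minus PPARg -0.27 ± 0.32 (adjusted p = 0.627). Non-overlapping lower arrays were seen for 2.51%, 1.79% and 7.44% of probe sets. Arrays of EBF1 and vector with the same replicate number deviated together at d2, and with the replicate number as a block EBF1 minus vector passed (-0.56 ± 0.16, adjusted p = 0.0392). That block also takes the session 3 shift at d4 out of the spread, so this pass does not rest on pairing alone. In the fit with the session added instead, EBF1 minus vector at d2 did not pass.

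By d10 Agtr2 read 125 and 304 in EBF1 cells, 230, 243 and 311 in PPARg cells, and 470, 462 and 688 in vector cells. Vector arrays lay above all arrays of both inserts, as did those of 20.4% of probe sets against EBF1 and 19.3% against PPARg. EBF1 minus vector was -1.44 ± 0.41 (2.72-fold lower, adjusted p = 0.00786), where 7.8% of probe sets were called lower, and PPARg minus vector was -1.03 ± 0.37 (2.05-fold lower, adjusted p = 0.0321), where 14.2% were. EBF1 minus PPARg was -0.41 ± 0.41 and did not pass (95% interval -1.23 to 0.41). The EBF1 arrays differed from each other by more than those of the other groups: without EBF1 d10 replicate 1 the difference from vector was -0.80 (adjusted p = 0.4), and without replicate 2 it was -2.08. The PPARg call also depended on single arrays, with adjusted p from 0.034 to 0.17 when 1 of 6 was left out, and was lost without vector replicate 1 or 3 or PPARg replicate 1 or 2.

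The EBF1 effect on Agtr2 was 0.62 at d0, which did not pass over all arrays, and -1.44 at d10, which rests on 2 EBF1 arrays. At d10 it was lower than at d0 by -2.07 ± 0.52 (adjusted p = 0.0034), where 4.32% of probe sets were called lower, and without EBF1 d10 replicate 1 this was -1.43 (adjusted p = 0.179). The PPARg effect was negative on both days, and its change was -0.15 ± 0.48 (adjusted p = 0.953). The other changes of effect did not pass over all arrays, and some did in the fit with the session added. There the EBF1 effect was lower at d4 than at d0 (-0.92 ± 0.21, adjusted p = 0.00205) and at d10 than at d4 (-1.14 ± 0.25, adjusted p = 0.00166). The PPARg effect was lower at d10 than at d4 (-0.84 ± 0.23, adjusted p = 0.0094). Days d10 and d0 share no session, so within an insert their direct difference also contains any difference between sessions. Arrays of d4 link the sessions, and the fit with the session added separates session from day only if a session shifts every group alike. The vector arrays subtracted came from the same sessions as those of the insert.

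Within inserts, Agtr2 rose from d0 to d2 in PPARg cells (2.35 ± 0.32, 5.11-fold, adjusted p = 5.05e-08) and in vector cells (1.77 ± 0.32, 3.40-fold, adjusted p = 1.87e-05), where 7.59% and 8.91% of probe sets were called higher. In EBF1 cells it was 0.58 ± 0.32 and did not pass (adjusted p = 0.219), although the d2 arrays lay above the d0 arrays, as did those of 10.8% of probe sets. In the fit with the session added it passed (adjusted p = 0.00734). From d2 to d4 it fell in each insert, by -1.60 ± 0.28 in EBF1, -1.77 ± 0.28 in PPARg and -1.86 ± 0.28 in vector cells, where 8.82%, 21.4% and 4.59% were called lower. Within session 1 these were -1.06, -1.18 and -1.38, and within session 2 -1.25, -1.26 and -1.38.

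At d4 against d0 Agtr2 depended on the sessions taken. Over all arrays it was lower in EBF1 cells (-1.02 ± 0.28, adjusted p = 0.0032), where 16.6% of probe sets were called lower, and did not pass in PPARg cells (0.59 ± 0.28, adjusted p = 0.107) or vector cells (-0.09 ± 0.28, adjusted p = 0.884). In sessions 1 and 2 it was -0.36 and -0.79 in EBF1 cells, 1.08 and 1.19 in PPARg cells, and 0.44 and 0.33 in vector cells, so the sign in vector cells turned. The PPARg rise passed without PPARg d4 replicate 5 (0.73) or 7 (0.72).

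From d4 to d10 Agtr2 rose in vector cells (1.60 ± 0.31, adjusted p = 9.32e-05), where 11.5% of probe sets were called higher, and did not pass in EBF1 cells (0.45 ± 0.36, adjusted p = 0.501) or PPARg cells (0.76 ± 0.31, adjusted p = 0.0807). In PPARg cells it passed without PPARg d4 replicate 2 (0.86). Against the d4 arrays of session 3, the session of d10, all 3 passed: 1.04 ± 0.22 in EBF1 cells (adjusted p = 0.000559), 1.49 ± 0.20 in PPARg cells (adjusted p = 1.26e-07) and 2.23 ± 0.20 in vector cells (adjusted p = 2.5e-12), where 8.2%, 4.78% and 7.26% were called higher. At d10 Agtr2 was above d0 in PPARg cells (1.35 ± 0.34, adjusted p = 0.00152) and vector cells (1.50 ± 0.34, adjusted p = 0.00119), where 13.4% and 9.53% were called higher, and EBF1 cells did not pass (-0.57 ± 0.39, adjusted p = 0.296). These d10 minus d0 values set session 3 against sessions 1 and 2, and session 3 was lower at d4 (-1.14 ± 0.11). The sign in EBF1 cells is therefore not settled. There d4 minus d0 was -0.36 and -0.79 within sessions 1 and 2, against a d10 minus d4 of 1.04 within session 3.

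The highest group means of Agtr2 were those of vector d2 (642 ± 90.1), vector d10 (540 ± 128) and PPARg d2 (520 ± 10.3). The vector d10 arrays overlapped with those of both other groups, and the vector d2 and PPARg d2 arrays did not overlap with each other. EBF1 d2 (432 ± 27.0) was apart from its neighbours, and EBF1 d0 (291 ± 39.5), PPARg d10 (261 ± 43.2), EBF1 d10 (215 ± 126), vector d4 (190 ± 74.1), vector d0 (188 ± 19.9), PPARg d4 (168 ± 70.4), EBF1 d4 (153 ± 57.5) and PPARg d0 (102 ± 9.97) followed with overlapping neighbours. Over the 12 group means the courses of Agt and Agtr2 had a Pearson r of 0.015 (log2 scale, 12 groups that share arrays and cultures, a description only).

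Ace changed with the day, and its differences between inserts were small and passed in no comparison of the all-array fit. With probe set 160927_at 0 of 12 insert comparisons passed in limma, and 1 had an unadjusted p under 0.05. At d4 EBF1 minus vector was -0.23 ± 0.12 and PPARg minus vector -0.22 ± 0.12 over all arrays (adjusted p = 0.189 and 0.313). In the fit with the session added the EBF1 difference passed (adjusted p = 0.0297) and the PPARg one did not, and with the replicate number as a block both passed (adjusted p = 0.0229 and 0.0496). Within sessions 1, 2 and 3 EBF1 minus vector was -0.10, -0.40 and -0.20, and PPARg minus vector -0.09, -0.46 and -0.15. The log2 folds against vector ran from -0.31 (PPARg d2, 95% interval -0.61 to 0.00) to 0.08 (PPARg d10, -0.27 to 0.44).

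At d0 Ace read 169, 169, 212 and 200 in EBF1 cells, 175, 171, 177 and 160 in PPARg cells, and 153, 154, 203 and 209 in vector cells. At d2 it read 288, 306, 312 and 331 in EBF1 cells, 257, 261, 289 and 303 in PPARg cells, and 323, 332, 359 and 360 in vector cells. Every d2 array lay above every d0 array, as did those of 10.8%, 14% and 8.14% of probe sets in EBF1, PPARg and vector cells. PPARg arrays at d2 lay below the vector arrays, as did those of 1.79% of probe sets, without passing (adjusted p = 0.854).

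The rise of Ace from d0 to d2 passed in each insert: 0.73 ± 0.15 in EBF1 cells (1.66-fold, adjusted p = 0.000191), 0.70 ± 0.15 in PPARg cells (adjusted p = 0.000333) and 0.95 ± 0.15 in vector cells (1.93-fold, adjusted p = 2.43e-06), where 10%, 7.59% and 8.91% of probe sets were called higher. At d4 it ran from 163 to 262 with a median of 226 in EBF1 cells, from 152 to 252 with a median of 231 in PPARg cells and from 183 to 346 with a median of 235 in vector cells. At d4 it stayed above d0 in PPARg (0.35 ± 0.14, adjusted p = 0.0397) and vector cells (0.51 ± 0.14, adjusted p = 0.00304), and EBF1 cells did not pass over all arrays (0.21 ± 0.14, adjusted p = 0.242) but did in the fit with the session added (0.38, adjusted p = 0.00135). EBF1 cells gave 0.45 within session 1 (adjusted p = 0.0028) and 0.32 within session 2 (adjusted p = 0.0593). d4 minus d2 was -0.51 ± 0.14, -0.35 ± 0.14 and -0.44 ± 0.14 in EBF1, PPARg and vector cells (adjusted p = 0.00312, 0.0375 and 0.0244), where 8.82%, 21.4% and 4.59% were called lower. The falls in PPARg and vector cells were lost without any 1 of 3 arrays (PPARg d2 replicates 3 and 4, PPARg d4 replicate 7) and any 1 of 5 arrays (vector d2 replicates 3 and 4, vector d4 replicates 2, 5 and 7), and the PPARg excess at d4 over d0 without any 1 of 8 arrays (all 4 of d0, and replicates 1 to 4 of d4). Here too session 3 was lower at d4, by -0.39 ± 0.08 over the 3 inserts (adjusted p = 0.000165), and in the fit with the session added the fall did not pass in PPARg (-0.18, adjusted p = 0.13) or vector cells (-0.27, adjusted p = 0.0612).

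At d10 Ace read 143 and 171 in EBF1 cells, 174, 181 and 151 in PPARg cells, and 138, 196 and 149 in vector cells. None of the inserts passed against d0 over all arrays, with -0.26 ± 0.19, -0.02 ± 0.16 and -0.16 ± 0.16 in EBF1, PPARg and vector cells. The arrays of d10 and d0 share no session, and in the fit with the session added the PPARg difference was 0.37 ± 0.13 and passed (adjusted p = 0.0266). d10 minus d4 passed in vector cells (-0.67 ± 0.15, adjusted p = 0.000582), where 6.83% were called lower, and not in EBF1 (-0.47 ± 0.17, adjusted p = 0.0556) or PPARg cells (-0.37 ± 0.15, adjusted p = 0.0765). It passed in EBF1 cells without EBF1 d4 replicate 6 (-0.52) or 7 (-0.54) and in PPARg cells without PPARg d4 replicate 7 (-0.46). Against the d4 arrays of session 3, the session of d10, the falls were smaller. They were -0.25 ± 0.16 in EBF1 (adjusted p = 0.431), -0.18 ± 0.14 in PPARg (adjusted p = 0.514) and -0.42 ± 0.14 in vector cells (adjusted p = 0.0425). In a fit of session 3 alone the fall in vector cells did not pass (adjusted p = 0.142).

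The Ace probe sets did not give 1 picture. With 161224_f_at, a set whose suffix marks probes shared with a sequence family, 0 of 33 comparisons passed (1 had an unadjusted p under 0.05, and vector d2 minus d0 passed without vector d0 replicate 4), and its arrays ran from 80.9 to 239. Its group means were nonetheless highest at d2 in each insert, with 186 in EBF1, 190 in PPARg and 192 in vector cells. In the fit with the session added its vector d2 minus d0 passed (0.61, adjusted p = 0.0392), as it did with the replicate block (adjusted p = 0.0366) and array weights (adjusted p = 0.00123). The third set, 101428_at, ran from 41.4 to 64.8, around the floor, and was not tested.

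**Figure D4:**
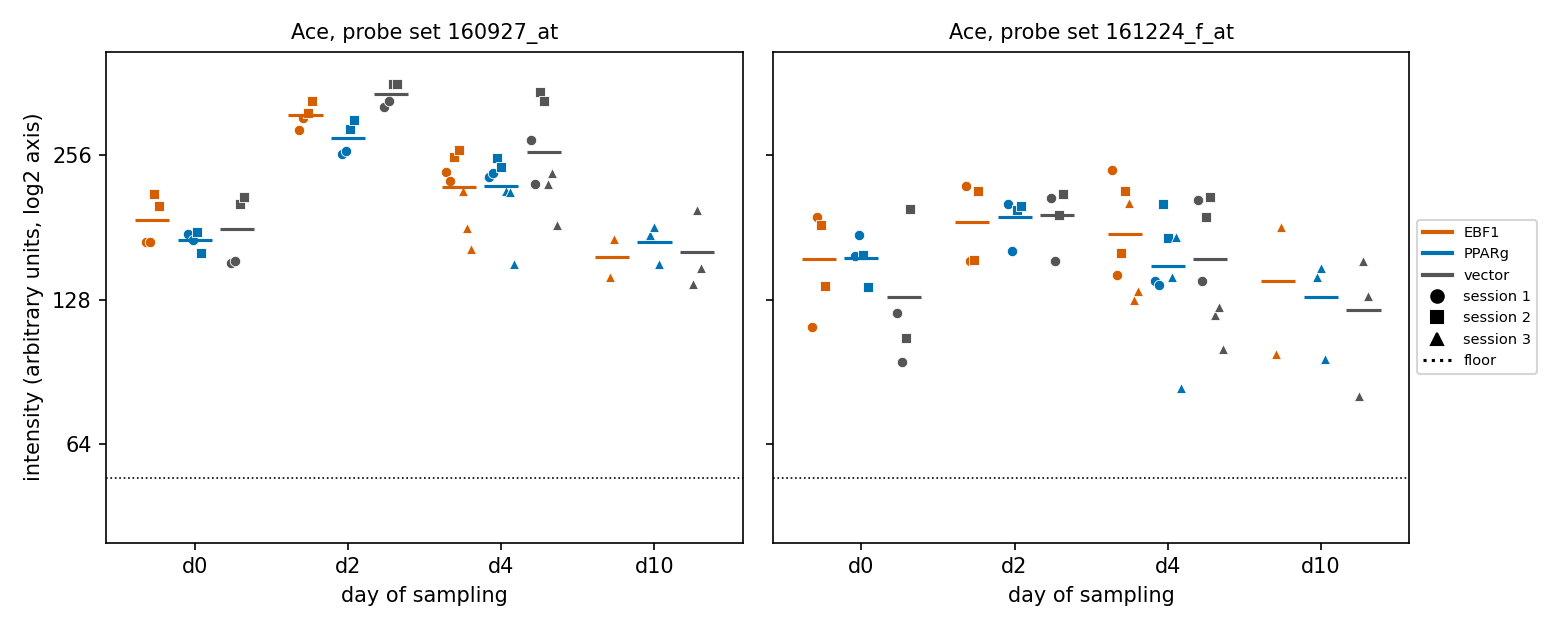
Ace intensity on each of the 53 arrays (log2 axis, arbitrary units) for probe sets 160927_at and 161224_f_at, with EBF1, PPARg and vector from left to right within a day; marker shape gives the session, the bar the group mean and the dotted line the floor of 54.5. In the first set the d2 group means of 309 in EBF1, 278 in PPARg and 343 in vector cells stand above all other days, and in the second the arrays of all days overlap.

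Few other genes of the renin-angiotensin system passed between the inserts. Of 27 listed genes (renin and its receptor, proteases that cut angiotensins, further receptors and kinin genes), 19 had a probe set and 13 were tested. Against vector in limma, 0 of 13 passed in PPARg cells at d2, d4 and d10 (1, 2 and 2 had an unadjusted p under 0.05), and in EBF1 cells 0 passed at d2 and d10 (2 and 0 unadjusted) and 1 fell at d4. Over all tested probe sets 0.564%, 7.49% and 23.6% passed in either direction in PPARg minus vector at d2, d4 and d10, and 1.54%, 18.9% and 18.3% in EBF1 minus vector. At d0 1 of 13 fell in PPARg minus vector, 1 rose in EBF1 minus vector and 2 rose in EBF1 minus PPARg, where 3.6%, 0.814% and 6.02% of all tested probe sets passed in either direction. In EBF1 minus PPARg 0 of 13 passed at d2, d4 and d10 (3, 1 and 1 had an unadjusted p under 0.05). The median log2 fold of the list at d10 was -0.05 in both EBF1 and PPARg cells, against -0.02 and 0.00 over all tested probe sets.

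The genes of the list that passed between inserts were lysosomal. Ctsd, the aspartic protease cathepsin D, which can cut angiotensinogen in the test tube, was at d0 higher in EBF1 than in vector cells (0.33 ± 0.07, adjusted p = 0.0128) and lower in PPARg than in vector cells (-0.29 ± 0.07, adjusted p = 0.0131), where 0.394% were called higher and 1.51% lower. Both calls against vector depended on single arrays: that of EBF1 was lost without vector d0 replicate 2 or 4 or EBF1 d0 replicate 1 or 4 (adjusted p up to 0.0719), and that of PPARg without vector d0 replicate 1 or 3 or PPARg d0 replicate 3 (up to 0.0805). EBF1 minus PPARg was 0.62 ± 0.07 (adjusted p = 2.92e-08) and passed with each array left out. Its d0 means were 2888 in EBF1, 1876 in PPARg and 2300 in vector cells.

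Ctsa, the carboxypeptidase cathepsin A, was higher in EBF1 than in PPARg cells at d0 (0.67 ± 0.15, adjusted p = 0.0027) and lower in EBF1 than in vector cells at d4 (-0.55 ± 0.12, adjusted p = 0.000274). Its d4 means were 455 in EBF1, 548 in PPARg and 674 in vector cells.

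Among genes of the list that changed with the day, Atp6ap2, the (pro)renin receptor, was lower at d2 than at d0 in EBF1 (-0.97 ± 0.18), PPARg (-0.53 ± 0.18) and vector cells (-0.70 ± 0.18), with adjusted p = 2.74e-05, 0.0251 and 0.00248, where 12.2%, 16% and 12.5% of probe sets were called lower. The PPARg call was lost without any 1 of 6 arrays (PPARg d0 replicates 1, 2 and 3, PPARg d2 replicates 1, 3 and 4). Agtrap, a protein that binds the type 1 receptor and promotes its internalisation, was lower at d10 than at d0 in EBF1 (-0.95 ± 0.31), PPARg (-1.31 ± 0.27) and vector cells (-0.94 ± 0.27), with adjusted p = 0.0161, 0.000127 and 0.0123, where 13%, 18.7% and 5.85% of probe sets were called lower. The EBF1 call was lost without EBF1 d10 replicate 1 and the vector call without vector d10 replicate 1 (adjusted p = 0.377 and 0.103), and in the fit with the session added neither passed (adjusted p = 0.407 and 0.514), while PPARg did (0.0117). Prep, a prolyl endopeptidase that makes angiotensin 1-7, was lower at d10 than at d4 in EBF1 (-0.76 ± 0.17, adjusted p = 0.00105) and PPARg cells (-0.67 ± 0.15, adjusted p = 0.000718). There 5.71% and 10.6% of probe sets were called lower. All d10 arrays were of session 3 and the d4 arrays of all 3 sessions, so these Prep values also contain any difference between sessions. Thop1, the peptidase thimet oligopeptidase, rose from d0 to d2 in EBF1 (0.31 ± 0.10, adjusted p = 0.0231) and vector cells (0.42 ± 0.10, adjusted p = 0.00177), where 10% and 8.91% were called higher. The EBF1 call was lost without EBF1 d0 replicate 4 or EBF1 d2 replicate 3 or 4. Kng1, kininogen, rose from d0 to d2 in vector cells (0.45 ± 0.14, adjusted p = 0.0176), where 8.91% were called higher. This call was lost without vector d0 replicate 1 or 2 or vector d2 replicate 4.

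Mas1, the receptor for angiotensin 1-7, had group means from 189 to 231, Bdkrb1 and Bdkrb2, the kinin receptors, from 705 to 836 and from 184 to 215, and Adam17, a sheddase, from 237 to 278. None of these 4 passed in an insert comparison.

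**Figure D5:**
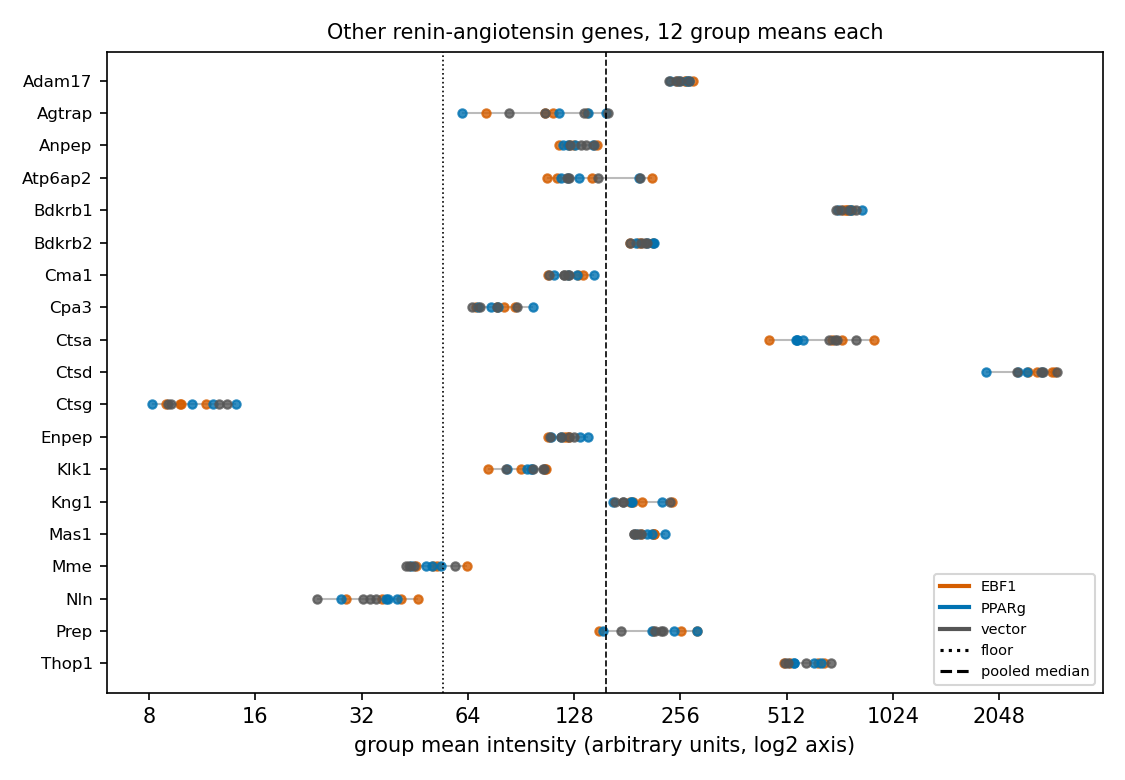
Group mean intensity (log2 axis, arbitrary units) of 19 other renin-angiotensin genes, 1 row per gene with 12 points for EBF1, PPARg and vector at d0, d2, d4 and d10; the dotted line is the floor of 54.5 and the dashed line the pooled median of 158. Points of a row lie close together for most genes, and Agtrap spans 61.8 to 159; intensities of different genes cannot be set against each other.

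Genes that angiotensin II is known to raise through the type 1 receptor in fibroblasts or smooth muscle moved in both directions against vector at d4 and in PPARg cells at d10, and those that passed in PPARg minus vector at d0 were higher. Of 18 listed, 13 were tested. At d0 4 rose and 0 fell in PPARg minus vector, 1 rose and 1 fell in EBF1 minus vector, and 0 rose and 5 fell in EBF1 minus PPARg. Over all probe sets, 2.09% rose in PPARg minus vector, 0.814% passed in either direction in EBF1 minus vector, and 3.68% fell in EBF1 minus PPARg. The median of the list in PPARg minus vector at d0 was 0.31, against 0.06 over all tested probe sets. At d2 0 passed in PPARg minus vector in limma (0 had an unadjusted p under 0.05), where 0.564% of all probe sets passed in either direction. In EBF1 minus vector at d2 1 rose, where 0.866% of all probe sets were called higher. In PPARg minus vector 1 rose and 2 fell at d4, and 2 rose and 3 fell at d10, and in the change of the PPARg effect from d0 to d10 0 rose and 5 fell, where 7.14% of all probe sets fell. In EBF1 minus vector 1 rose and 2 fell at d4, and 1 rose and 0 fell at d10. Over all probe sets, 5.7% rose and 1.8% fell in PPARg minus vector at d4, and 11% rose and 7.91% fell in EBF1 minus vector. At d10 9.4% rose and 14.2% fell in PPARg minus vector, and 10.5% rose and 7.8% fell in EBF1 minus vector.

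At d0 Ccn2, a matrix-associated growth factor, was higher in PPARg than in vector cells (0.80 ± 0.14, adjusted p = 0.000125) and lower in EBF1 than in vector cells (-1.34 ± 0.14, adjusted p = 4.99e-09). Myc, a growth regulator (0.92 ± 0.12), Egr1, an early response transcription factor (1.59 ± 0.41), and Nr4a1, an orphan nuclear receptor (0.64 ± 0.15), were the other 3 that were higher in PPARg than in vector cells at d0, and the Egr1 call was lost without vector d0 replicate 2 or PPARg d0 replicate 3 or 4. Ccl2, a chemokine, was higher in EBF1 than in vector cells at d0 (1.32 ± 0.29), a call lost without vector d0 replicate 1 or 2 or EBF1 d0 replicate 3 or 4. Ccn2, Egr1, Nr4a1 and the d0 values were named after their values were seen.

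At d4 and d10 Myc was higher than in vector cells in PPARg cells at d4 (0.29 ± 0.09) and d10 (0.87 ± 0.14) and in EBF1 cells at d4 (0.39 ± 0.09). Vegfa, an angiogenic factor, was higher at d10 in EBF1 (0.72 ± 0.20) and PPARg cells (0.52 ± 0.18). Fn1, fibronectin, was lower at d4 in EBF1 (-0.51 ± 0.08) and PPARg cells (-0.38 ± 0.08) and at d10 in PPARg cells (-0.61 ± 0.12). Col1a1, a collagen chain, was lower in EBF1 cells at d4 (-0.46 ± 0.17) and in PPARg cells at d10 (-1.02 ± 0.26). Ccl2 was lower in PPARg cells at d4 (-0.70 ± 0.22) and d10 (-1.63 ± 0.33).

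Some of these calls at d4 and d10 depended on single arrays. In PPARg minus vector at d4, Myc was lost without any 1 of 9 arrays (vector replicates 1, 2, 5 and 6, PPARg replicates 1, 4, 5, 6 and 7) and Ccl2 without any 1 of 8 (vector replicates 3 to 7, PPARg replicates 5 to 7). In EBF1 minus vector at d4, Col1a1 was lost without any 1 of 8 (vector replicates 3, 4 and 6, EBF1 replicates 1, 2, 5, 6 and 7). At d10 Vegfa was lost in EBF1 cells without EBF1 replicate 1 and in PPARg cells without vector replicate 2 or 3 or PPARg replicate 3. Fn1 and Col1a1 are also fibroblast markers. The summed fibroblast markers ran from 35210 to 35290 in EBF1 d10, from 27250 to 28740 in PPARg d10 and from 44630 to 47880 in vector d10, and their part in these values was not tested.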

How the data were processed

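Total RNA was hybridised to 53 MG_U74Av2 arrays. The deposited table gives 1 linear intensity per probe set and array, as the authors computed it. The summarisation and scaling are not given in the sources used here, and the array number limits the precision. The experiment files, per the file headers, gave the date, whose month was used to set the 3 sessions, with no other column used.

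A floor was set at the pooled 20th percentile (54.48) before log2. Testing covered 7619 probe sets that exceeded the pooled median (158) on 2 or more arrays, without 66 controls. Symbols came from the platform annotation and were updated through Entrez identifiers (10817 of 10833 with 1 symbol). limma 3.58.1 in R 4.3.3 fitted 1 mean per group over all 53 arrays, with an intensity trend and Benjamini-Hochberg adjustment over all tested probe sets within each of 33 comparisons at a threshold of 0.05, and "passed" refers to this. Folds understate changes near the floor. The procedure was tested on simulated data.

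Named genes are the members with every probe set, listed renin-angiotensin genes that passed between inserts or had a group mean above the pooled median, the largest changes of the angiotensin II list, the 5 genes most like Agt, and adipocyte and glucocorticoid genes. The members and lists were chosen with earlier results of these data known. Alternatives tried were a floor at the 40th percentile, quantile normalization, a stricter or no filter, array weights, a fit of the compared groups only, a block for replicate number or session, each session alone, and each array left out. The uses of the session 3 arrays of d4 were chosen after seeing the data.

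Replicate numbers deviated together (every pair correlation above 0.1 with at least 3 pairs) in 4 of 27 comparisons: EBF1 minus vector at d2 (0.621 to 0.678), EBF1 d4 minus d2 (0.377 to 0.546), PPARg d10 minus d0 (0.308 to 0.444) and vector d4 minus d2 (0.23 to 0.769). This pairing comes from the data, since the labels do not say what a number marks. Between same-group arrays 0 of 106 pairs were identical. The closest were replicates 1 and 2 of vector d0 and of PPARg d10, with mean absolute log2 differences of 0.094 and 0.097. The median of pairs within a session was 0.225. Whether such close arrays share a culture is not given in the labels. Figures were drawn with matplotlib, and promoter windows are those of RefSeq.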

Additional observations from a re-analysis of the deposited data

Results flagged for a closer look

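In Agt the difference between PPARg and vector cells changed with the day, by 1.05 (log2) at d10 minus d0 and 0.80 at d10 minus d4, and that between EBF1 and vector cells by -0.65 at d4 minus d0 and 0.79 at d10 minus d4. These were tested as differences of insert effects in limma and passed. The value for PPARg at d10 minus d4 was lost without any 1 of 2 arrays (0.63 to 0.90 over all arrays left out), and those for EBF1 without any 1 of 8 (-0.76 to -0.54) and of 10 arrays (0.69 to 0.86). In Agtr2 the EBF1 effect changed by -2.07 at d10 minus d0, which passed, with 2 EBF1 arrays at d10 that read 125 and 304, and was -1.43 and did not pass without EBF1 d10 replicate 1.

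A single array stood apart in 2 of 36 groups of member values examined, and chance alone gives about 1 in 20. Ace read 152 with probe set 160927_at on PPARg d4 replicate 7, against 214 to 252 on the other arrays of its group, and 161.6 with 161224_f_at on PPARg d2 replicate 2, against 196 to 202.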

How the results depend on the processing

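Of 81 results (Agt, Agtr2 by 94934_at and Ace by 160927_at, in 27 comparisons), a floor at the 40th percentile and a strict filter kept direction and side of the threshold in 81. The log2 values that crossed the threshold elsewhere follow. Fits of 1 session or of only the groups compared hold fewer arrays, and for the other settings the cause was not tested.

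For Agt, array weights made PPARg minus vector d0 (0.19), EBF1 minus vector d0 (0.30) and vector d10 minus d0 (0.40) pass. Fits of 1 session lost PPARg minus vector d2 (0.70, session 2), EBF1 minus vector d2 (-0.49, session 2), EBF1 minus vector d4 (-0.17 and -0.066, sessions 1 and 2) and EBF1 minus PPARg d4 (-0.35, session 2). A fit of only the groups compared lost EBF1 minus PPARg d10 (-0.84). Of the differences of effects, EBF1 d4 minus d0 (-0.65) and d10 minus d4 (0.79) were lost without a filter (adjusted p = 0.0587 and 0.059) and with only the groups compared (0.164 and 0.173).

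For Agtr2, PPARg minus vector d0 passed with only its groups (-0.88), array weights (-0.71), session block (-0.88) and sessions 1 (-0.66) and 2 (-1.10), and EBF1 minus vector d0 with array weights (0.70), session block (0.62) and session 1 (0.69). EBF1 minus vector d2 passed in session 2 (-0.69), EBF1 minus PPARg d2 with only its groups (-0.27), and EBF1 d2 minus d0 with only its groups (0.58), session block (0.58) and session 1 (0.70). PPARg minus vector d10 was lost without a filter (-1.03, adjusted p = 0.06). EBF1 d10 minus d4 passed with session block (1.10) and session 3 (1.04), PPARg d4 minus d0 with array weights (0.72), session block (1.08) and sessions 1 (1.08) and 2 (1.19), and PPARg d10 minus d4 with array weights (0.46), session block (1.41) and session 3 (1.49). Vector d4 minus d0 reversed in session 1 (0.44). Of the differences of effects, EBF1 d4 minus d0 passed with session block (-0.92), replicate block (-0.92) and sessions 1 (-0.80) and 2 (-1.12). EBF1 d10 minus d4 passed with session block (-1.14), replicate block (-1.11), array weights (-1.59) and a floor at the 40th percentile (-1.21). PPARg d10 minus d4 passed with both blocks (-0.84) and array weights (-1.43), and PPARg d4 minus d0 with replicate block (0.68), array weights (0.88) and session 1 (0.64).

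For Ace, session block made EBF1 minus vector d4 (-0.23) and EBF1 d4 minus d0 (0.38) pass (EBF1 d4 minus d0 also in session 1, 0.45). It lost PPARg d4 minus d2 (-0.18) and vector d4 minus d2 (-0.27) and reversed PPARg d10 minus d0 (0.37, adjusted p = 0.0266). Sessions 1 and 2 lost PPARg d4 minus d2 (-0.15 and -0.26), session 2 EBF1 d4 minus d2 (-0.32) and vector d4 minus d2 (-0.085), and session 3 vector d10 minus d4 (-0.42). No filter lost PPARg d4 minus d0 (0.35) and d4 minus d2 (-0.35), and only the groups compared lost vector d4 minus d0 (0.51) and d4 minus d2 (-0.44). Quantile normalization and array weights made EBF1 d10 minus d4 (-0.46 and -0.54) and PPARg d10 minus d4 (-0.40 and -0.30) pass.

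With the replicate block, Agtr2 passed in PPARg minus vector d0 (-0.88), EBF1 minus vector d0 (0.62) and d2 (-0.56), EBF1 d2 minus d0 (0.58) and d10 minus d0 (-0.54) and PPARg d4 minus d0 (1.08), and vector d4 minus d0 reversed (0.39). Ace passed in PPARg and EBF1 minus vector d4 (-0.22 and -0.23), EBF1 d4 minus d0 (0.38), EBF1 and PPARg d10 minus d4 (-0.56 and -0.50), and PPARg d4 minus d2 was lost (-0.18). Of these, EBF1 minus vector d2 alone is a comparison in which the numbers paired arrays, and the block changed no other call there. The replicate block does not take out the session, which differs between d10 and d0.

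Leaving out 1 array moved the following across the threshold. In Agt the ranges were 0.62 to 0.75 for PPARg minus vector d2, -0.70 to -0.57 for EBF1 minus vector d2 and -0.94 to -0.68 for EBF1 minus PPARg d10. In Agtr2 they were -1.17 to -0.85 for PPARg minus vector d10, -2.08 to -0.80 for EBF1 minus vector d10, 0.48 to 0.73 for PPARg d4 minus d0 and 0.61 to 0.86 for PPARg d10 minus d4. In Ace they were -0.60 to -0.34 for EBF1 d10 minus d4, 0.32 to 0.44 for PPARg d4 minus d0, -0.38 to -0.26 for PPARg d4 minus d2, -0.46 to -0.29 for PPARg d10 minus d4 and -0.51 to -0.36 for vector d4 minus d2. Counts of calls over all probe sets moved by over 1.5 times in 23 of 33 comparisons with array weights, 14 with only the groups compared, 12 with the replicate block and 9 with the session block. PPARg minus vector at d2 had 43 calls, against 638 with array weights, 17 with only its groups, 91 with the replicate block and 92 with the session block, and EBF1 minus vector at d2 had 117, against 340, 25, 220 and 227. Array weights ran from 0.1753 to 53.15. Probe sets near the floor have no order there.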
